A study of Mus musculus with 11 samples.

Results

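The genes of the mTOR complexes and of the substrates through which mTOR complex 1 reaches translation were followed in GL261 mouse glioma with and without Rheb1 in Cx3cr1-expressing cells. They are 10 genes, chosen by name for their place in the pathway, out of 50686 genes in the count tables: the kinase Mtor with the subunits Mlst8 and Deptor, Rptor and Akt1s1 of mTOR complex 1 (mTORC1), Rictor and Mapkap1 of mTOR complex 2 (mTORC2), and the mTORC1 substrates Rps6kb1, Eif4ebp1 and Eif4ebp2. All 10 had counts in the tables and passed the filter on low counts in every comparison. GL261 is a glioma cell line that grows in the brain of immunocompetent C57BL/6 mice. Rheb1 KO mice (labelled KO, Cx3cr1-Rheb1 Δ/Δ) carried the floxed exon of Rheb1 and a tamoxifen-inducible Cre knocked in at Cx3cr1. WT mice, Rheb1 fl/fl in the study's methods, carried the floxed gene without Cre. Both genotypes received tamoxifen 3 weeks before tumour cells were injected at an age of 6 weeks, and tissue was taken 3 weeks after injection. The 11 RNA-seq libraries were TAM-MG, the tumour-associated microglia sorted as CD11b+ CD45low cells, from 3 KO mice (54, 63 and 65) and 2 WT mice (74 and 78), and bulk tumour RNA from sections of fixed and embedded tissue, from 3 KO mice (26, 36 and 37) and 3 WT mice (35, 38 and 110).

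The Cre follows the Cx3cr1 promoter, which is on in microglia and, according to the study, also in a part of the macrophages that come from bone marrow. Tumour cells keep Rheb1 in both genotypes, so that bulk RNA includes cells with the gene intact. In bulk tissue fewer cells of a type and less RNA per cell cannot be told apart.

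mTOR is a serine/threonine kinase that works in a pair of complexes. mTORC1, built around raptor, is switched on at the lysosome by the GTPase Rheb and drives protein synthesis through S6 kinase and the 4E-BPs, small proteins that hold the cap-binding factor eIF4E until mTORC1 phosphorylates them. mTORC2, built around rictor and mSIN1, phosphorylates AKT and related kinases. These are largely changes of protein phosphorylation, which RNA levels do not measure.

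S6 kinase and the 4E-BPs are held by raptor through a short stretch called the TOS motif. Its coding bases are shown for the 3 substrates because the results turn on how unequally these substrates are expressed in microglia, although they share this docking site. Each run is read 5′ to 3′ on the coding strand from the GENCODE M21 transcript on GRCm38, with the 15 bases of the TOS motif in capitals.
Rps6kb1: atggcaggagtgTTTGACATAGACCTGgac
Eif4ebp1: gaagagtcacaaTTTGAGATGGACATTtaa
Eif4ebp2: gatgaggctcagTTTGAGATGGACATCtga

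The Rps6kb1 motif lies on the minus strand of chromosome 11 from 86544611 to 86544625, in coding exon sequence, and covers residues 28 to 32 of 525. The Eif4ebp1 motif lies on the plus strand of chromosome 8 from 27275094 to 27275108 and the Eif4ebp2 motif on the minus strand of chromosome 10 from 61433800 to 61433814, each as the last codons before the stop. The capitals of the 4E-BP pair differ at 1 of 15 bases and at 0 residues.

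Libraries held 22132236 to 25945816 gene counts in TAM-MG KO, 20765767 to 29947977 in TAM-MG WT, 14940787 to 19798998 in bulk KO and 15606224 to 21991348 in bulk WT. Levels below are CPM, a gene's count relative to the total of its library, scaled over all 11 libraries by TMM. The summed level of 10 microglia and macrophage markers was 47980 to 52125 CPM in TAM-MG KO and 35475 to 49257 CPM in TAM-MG WT, and all of these markers were detected in both groups. In bulk tumours that sum was 243 to 467 CPM in KO and 700 to 1091 CPM in WT, so the genotypes did not overlap. In TAM-MG, the number of genes with at least 10 counts was 13832 to 14332 in KO and 12618 to 12859 in WT.

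Levels of different genes were compared per length. Eif4ebp1, which encodes 4E-BP1, had the highest TPM of the 10 genes in 5 of 5 TAM-MG libraries and in 4 of 6 bulk libraries. Its median was 107 TPM in TAM-MG and 83.6 TPM in bulk. Below it in TAM-MG came Rps6kb1 with a median of 19.3 TPM, Akt1s1 with 13.6 TPM, Rptor with 13.3 TPM and Mapkap1 with 12.4 TPM, whose ranges over libraries overlapped. The kinase Mtor had a median of 5.04 TPM in TAM-MG and 5.21 TPM in bulk. The lowest in TAM-MG were Eif4ebp2 at 2.22 TPM, Rictor at 2.20 TPM and Deptor at 0.360 TPM. In bulk, Akt1s1 had a median of 32.4 TPM, Mapkap1 26.6 TPM, Eif4ebp2 14.3 TPM and Rictor 8.98 TPM, and Rptor was the lowest at 1.10 TPM. Counts per kilobase of exon gave another order below Eif4ebp1 in both sources. In TAM-MG, Eif4ebp1 had a median of 49.4 CPM per kilobase, followed by Mapkap1 at 7.93, Rps6kb1 at 5.90, Rptor at 5.52 and Akt1s1 at 3.75. In bulk, Eif4ebp1 had 30.2, followed by Eif4ebp2 at 13.6, Rps6kb1 at 9.996, Rictor at 8.06 and Mapkap1 at 7.05. Below these in bulk came Akt1s1 at 5.47, Deptor at 4.38, Mtor at 3.59, Rptor at 2.37 and Mlst8, the lowest, at 2.21. The deposited counts and TPM differed in bulk for Rptor, with 402 to 1710 counts and 0 to 5.68 TPM, for Mapkap1, with 401 to 978 counts and 5.46 to 104 TPM, and for Rps6kb1, with 962 to 2390 counts and 2.03 to 25.3 TPM.

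**Figure D1:**
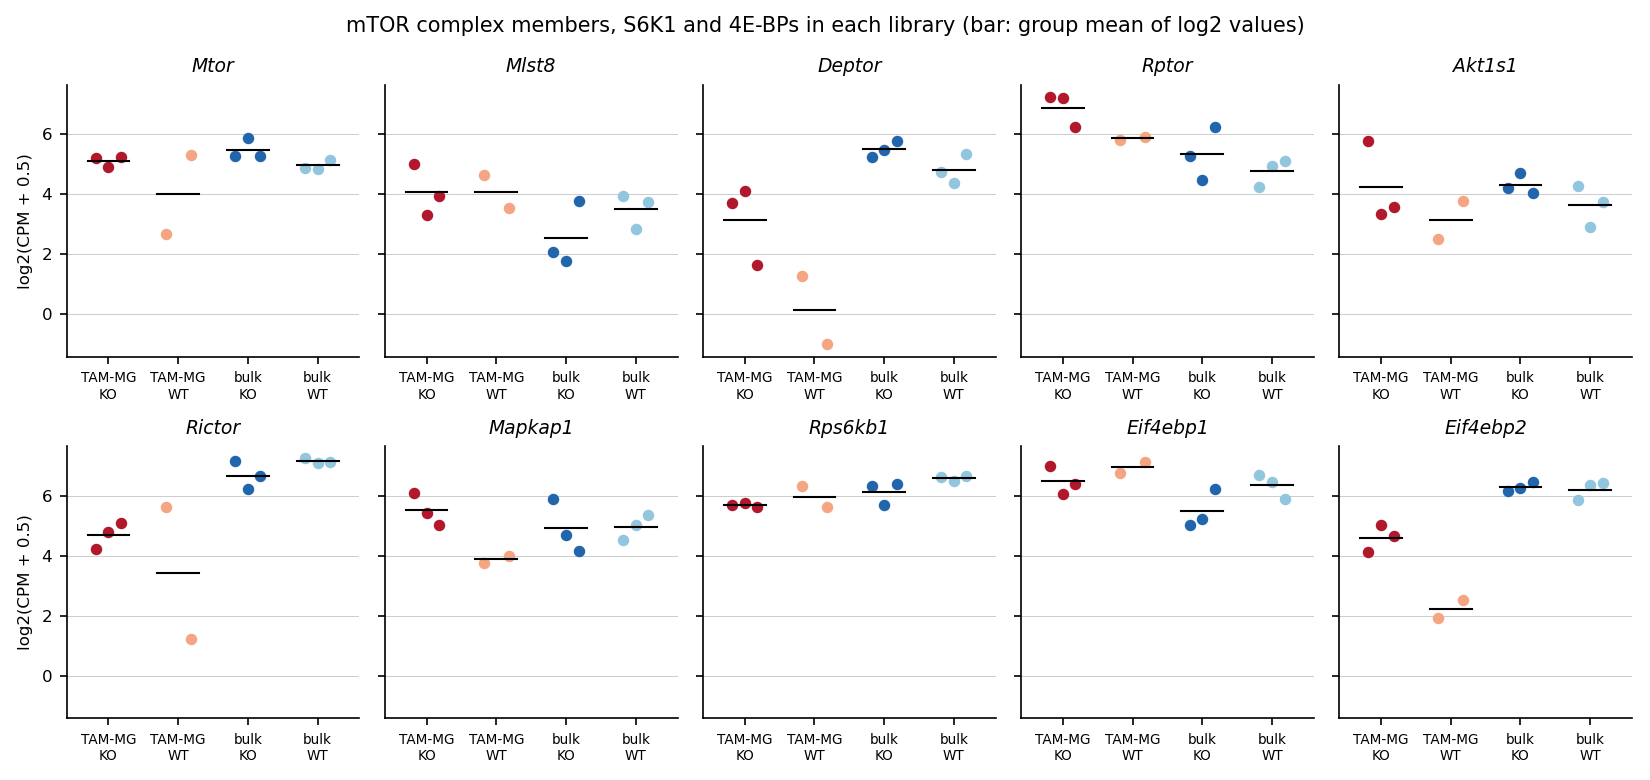
Level of each of the 10 genes in every library, as log2(CPM + 0.5) on the y axis, by group on the x axis, with 1 point per library and a bar at the group mean. Eif4ebp2 was lower in all 5 TAM-MG libraries than in all 6 bulk libraries, and within TAM-MG the 3 KO libraries lay above the 2 WT libraries.

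The deleted gene is the first check of the groups. Rheb, the official symbol of Rheb1, had 84.7, 89.2 and 89.5 CPM in TAM-MG KO libraries and 103 and 204 CPM in TAM-MG WT libraries. In bulk tumours it had 190, 105 and 121 CPM in KO and 286, 196 and 272 CPM in WT. All KO libraries lay below all WT libraries in both sources, beside 11.5% of all genes in TAM-MG and 9.23% in bulk. Tumour cells in bulk keep Rheb1, and the cause of the lower Rheb in bulk KO was not tested. The log2 fold change was -0.85 ± 0.34 (SE) in TAM-MG, with an adjusted p of 0.552, and -0.88 ± 0.32 in bulk, with an adjusted p of 0.426 (edgeR quasi-likelihood test, Benjamini-Hochberg over all genes tested). Counts cover the whole gene, including exons that stay in place when the floxed one is removed.

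The comparison of KO with WT TAM-MG asked whether microglia without Rheb1 changed the RNA of the complexes that Rheb1 acts on. No gene was called, where a call needed both an adjusted p below 0.05 and a 1.5-fold difference: 0 of 14872 genes tested passed by the quasi-likelihood test, 813 higher and 342 lower ones had an unadjusted p under 0.05, and the likelihood ratio test called 245 and DESeq2 477. Of the 10 genes 0 were called, beside 0% of all genes. At an unadjusted p under 0.05, 3 were higher and 0 lower in KO (Eif4ebp2, Mapkap1 and Rptor), beside 5.47% of all genes higher and 2.3% lower. In CPM, every KO library lay above both WT libraries in 4 of 10, beside 14.6% of all genes, and in 0 every KO library lay below, beside 11.5%. Of these, Rptor and Deptor overlapped in the deposited TPM, as given below. The median log2 fold change was 0.81 over the 10 genes and 0.08 over all genes tested, and 7 of the 10 were positive and 3 negative, beside 53.5% and 46.5% of all genes. With libraries scaled to an equal mean log CPM in place of TMM, these medians became 0.41 and -0.34, and the unadjusted p under 0.05 fell on 536 genes higher and 1222 lower, against 813 higher and 342 lower with TMM.

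Eif4ebp2, which encodes 4E-BP2, the main 4E-BP of neurons, had 17.0, 32.0 and 24.7 CPM in TAM-MG KO libraries. In TAM-MG WT libraries it had 3.33 and 5.26 CPM, from 90 and 82 counts. Every KO library was above both WT libraries, and the log2 fold change was 2.46 ± 0.80 (SE), a 5.52-fold difference, with an adjusted p of 0.519. The call depended on the tool: DESeq2 gave an adjusted p of 0.0273, and over 16 alternatives the adjusted p ran from 0.0273 to 0.9998, with the log2 fold change between 1.44 and 2.80. Deposited TPM values gave the same order, with 2.22, 4.84 and 3.30 TPM in KO and 0.515 and 0.676 TPM in WT.

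Summed levels of some other cells' markers also differed between genotypes in TAM-MG, each carried by a few genes. The sum of 6 neuron markers was 17.6 to 31.0 CPM in KO and 5.96 to 8.17 CPM in WT, led by Snap25, with 18.002, 23.05 and 5.86 CPM in KO and 3.51 and 0.0641 CPM in WT. Of the 6 neuron markers 5 were tested, with 4 positive log2 fold changes, 1 negative and a median of 1.765. In 1 of them every KO library lay above both WT libraries. Gad1 was at 0 in 2 of 3 KO libraries and both WT libraries. Rbfox3 had 1.23, 0 and 0 CPM in KO and 3.51 and 0.256 CPM in WT. As a share of the bulk median the sums of neuron markers were 0.948% to 1.67% in KO and 0.322% to 0.440% in WT. Eif4ebp2 stood at 21.6% to 40.7% of its bulk median in KO and 4.23% to 6.69% in WT. The part of neurons in the Eif4ebp2 values was not tested. Endothelial markers summed to 104 to 121 CPM in KO and 59.9 to 77.0 CPM in WT. Of these, Cldn5 was higher in every KO library than in WT (33.5 to 83.4 CPM in KO and 13.2 to 14.9 CPM in WT), whereas Kdr (1.23 to 12.1 CPM in KO and 13.6 to 22.4 CPM in WT) and Cdh5 (0 to 0.167 CPM in KO and 1.41 to 1.70 CPM in WT) were lower in every KO library, and Tek was at 0 in 2 of 3 KO libraries and both WT libraries. Granulocyte markers summed to 384 to 419 CPM in KO and 207 to 295 CPM in WT, of which Csf3r alone gave 358 to 378 CPM in KO and 176 to 253 CPM in WT. Cxcr2 had 2.45 to 7.86 CPM in KO and 0 to 0.702 CPM in WT, without overlap. S100a9 had 4.57 to 11.6 CPM in KO and 1.92 to 7.69 CPM in WT. S100a8 had 14.5 to 28.7 CPM in KO and 23.3 to 39.2 CPM in WT, and Mpo and Elane were at 0 in every TAM-MG library. Of the 4 granulocyte markers tested 3 had positive log2 fold changes and 1 negative. Oligodendrocyte markers summed to 227 to 283 CPM in KO and 298 to 333 CPM in WT. The sums overlapped for astrocytes (131 to 143 CPM in KO and 63.6 to 187 CPM in WT), T cells (9.10 to 15.4 CPM in KO and 0 to 17.8 CPM in WT) and monocyte-derived macrophages (586 to 1414 CPM in KO and 798 to 1717 CPM in WT). The part of these cells in the differences between genotypes was not tested.

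Among the mTORC2 subunits, Mapkap1, which encodes mSIN1, had 66.7, 42.3 and 32.2 CPM in TAM-MG KO libraries and 13.0 and 15.4 CPM in TAM-MG WT libraries. All KO libraries were above both WT libraries, and the log2 fold change was 1.67 ± 0.55 (SE), with an adjusted p of 0.519. Rictor had 18.2, 26.8 and 33.6 CPM in KO and 48.2 and 1.86 CPM in WT. The WT libraries lay on either side of the KO libraries, with 1305 counts in WT 74 and 29 in WT 78, and the log2 fold change of -0.02 ± 1.20 (SE) became -0.96 without WT 78 and 3.80 without WT 74.

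Of the mTORC1 subunits, Rptor had 149, 147 and 74.3 CPM in TAM-MG KO libraries and 55.4 and 59.7 CPM in TAM-MG WT libraries. The groups did not overlap in CPM, and the log2 fold change was 1.04 ± 0.40 (SE), with an adjusted p of 0.552. The deposited TPM of Rptor overlapped, with 21.4, 24.6 and 10.4 TPM in KO and 13.3 and 7.46 TPM in WT. Akt1s1, which encodes PRAS40, an inhibitor of mTORC1 that AKT phosphorylates, had 54.4, 9.64 and 11.5 CPM in KO and 5.17 and 13.0 CPM in WT. Its groups overlapped and KO 54 alone stood high: the log2 fold change of 1.44 ± 1.08 (SE; adjusted p = 0.815) became 0.18 without that library.

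Of the kinase and the subunits shared by both complexes, Mtor had 36.2, 29.6 and 37.5 CPM in TAM-MG KO libraries and 5.84 and 39.3 CPM in TAM-MG WT libraries. WT 78 lay above all KO libraries and WT 74 far below them, and the log2 fold change of 0.58 ± 0.83 (SE; adjusted p = 0.944) became -0.20 without WT 74 and 2.48 without WT 78. Mlst8, which encodes the kinase-bound subunit mLST8, had 31.7, 9.35 and 14.9 CPM in KO and 24.4 and 11.03 CPM in WT, with overlapping groups and a log2 fold change of 0.01 ± 0.84 (SE; adjusted p = 0.999), whose sign turned with an equal mean log CPM (-0.47) and with library size alone (-0.03). Deptor, an inhibitor of both complexes, had 12.7, 16.7 and 2.62 CPM in KO and 1.92 and 0 CPM in WT. The count of 0 in WT 78 allows up to 0.144 CPM of that library's total (3 counts, counting error only). KO libraries were all above WT libraries in CPM, but the log2 fold change was 3.36 ± 2.22 (SE), with an adjusted p of 0.763, and was 2.38 without WT 78. The deposited TPM of Deptor overlapped, with 2.15, 2.87 and 0.310 TPM in KO and 0.360 and 0.0390 TPM in WT. Without WT 74 the remaining WT library had no counts, so no fold is given.

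The other substrates had negative log2 fold changes that did not pass the test. Rps6kb1, which encodes S6K1, had 51.1, 53.0 and 48.3 CPM in TAM-MG KO libraries and 79.3 and 48.5 CPM in TAM-MG WT libraries. The KO libraries were close together and overlapped with WT 78, and the log2 fold change was -0.40 ± 0.38 (SE; adjusted p = 0.884), or 0.06 without WT 74. Eif4ebp1 had 125, 66.0 and 82.8 CPM in KO and 108 and 138 CPM in WT, with overlapping groups and a log2 fold change of -0.48 ± 0.37 (SE; adjusted p = 0.819).

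The comparison of KO with WT bulk tumours asked the same question of the whole tumour. No gene passed here either: 0 of 17028 genes tested were called by the quasi-likelihood test, 1533 had an unadjusted p under 0.05, and the likelihood ratio test called 383 and DESeq2 474. Of the 10 genes 0 were called, beside 0% of all genes, and 0 had an unadjusted p under 0.05, beside 9% of all genes, 3.82% higher and 5.19% lower. The log2 fold changes had a median of 0.06, beside 0.003 over all genes tested, with 6 positive and 4 negative, beside 50.2% and 49.8% of all genes. In 1 of 10 the KO libraries lay above all WT libraries, beside 7.82% of all genes, and in 1 below, beside 9.23%. With an equal mean log CPM the unadjusted p under 0.05 fell on 901 genes higher and 724 lower, and with library size alone on 505 and 1052, against 650 and 883 with TMM, and the median of the 10 genes was 0.19 and -0.03 under these scalings. Besides the microglia and macrophage markers, the sum of T cell markers was lower in bulk KO without overlap (3.44 to 6.80 CPM in KO and 11.9 to 35.5 CPM in WT). The sum of granulocyte markers was too (1.45 to 12.9 CPM in KO and 16.9 to 31.9 CPM in WT). The separation of the granulocyte sum rested on Csf3r, with 0.0593 to 1.52 CPM in KO and 10.8 to 26.2 CPM in WT. Csf3r also had counts in sorted TAM-MG, as given above. S100a8 overlapped and was highest in KO 26 (0.214 to 10.025 CPM in KO and 0.300 to 5.77 CPM in WT). Mpo was higher in KO (0.0435 to 2.67 CPM in KO and 0 to 0.0375 CPM in WT). Of the 6 granulocyte markers 2 were tested in bulk. The sum of the monocyte-derived macrophage markers overlapped (1173 to 2390 CPM in KO and 1762 to 2567 CPM in WT) and was mostly Vim, but 5 of its 6 genes had negative log2 fold changes, with a median of -2.24 over the list, beside -1.84 for the microglia and macrophage list. In 3 of the 6 all KO tumours lay below all WT tumours, among them Lyz2 with 10.4 to 40.1 CPM in KO and 131 to 390 CPM in WT. The sums of the other cell types overlapped. Their part in the values below was not tested.

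Mtor was the gene with KO above WT. It had 37.9, 57.3 and 37.96 CPM in bulk KO tumours and 29.0, 28.3 and 34.6 CPM in bulk WT tumours, a log2 fold change of 0.52 ± 0.40 (SE; adjusted p = 0.754). The deposited TPM of Mtor did not give that order, with 6.16, 5.14 and 3.08 TPM in KO and 5.29, 4.503 and 6.93 TPM in WT, and limma on log2(TPM + 1) gave -0.20. Rps6kb1 was the gene with KO below WT. It had 78.4, 51.5 and 83.6 CPM in bulk KO and 98.8, 89.5 and 101 CPM in bulk WT, a log2 fold change of -0.46 ± 0.32 (SE; adjusted p = 0.718), and limma on log2(TPM + 1) gave 0.80.

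The smallest p among the 10 genes in bulk belonged to Eif4ebp1. It had 31.7, 36.99 and 73.96 CPM in bulk KO tumours and 103, 87.1 and 58.7 CPM in bulk WT tumours. KO 26 and KO 36 lay below all WT tumours and KO 37 among them, and the log2 fold change was -0.82 ± 0.41 (SE), with an adjusted p of 0.608. In the deposited TPM of Eif4ebp1 all KO tumours lay below all WT tumours, with 38.1, 30.4 and 68.4 TPM in KO and 172, 98.8 and 111 TPM in WT. Over 17 alternatives its adjusted p ran from 0.232 to 0.820. Eif4ebp2, which stood apart in TAM-MG, had 71.2, 76.5 and 87.8 CPM in bulk KO and 56.6, 80.7 and 85.0 CPM in bulk WT. Its groups overlapped over a narrow range, with a log2 fold change of 0.07 ± 0.32 (SE; adjusted p = 0.973), a sign that turned with library size alone (-0.02).

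The mTORC2 scaffold Rictor had 140, 73.2 and 100 CPM in bulk KO tumours and 150, 135 and 138 CPM in bulk WT tumours, a log2 fold change of -0.45 ± 0.32 (SE; adjusted p = 0.720). KO 26 lay within the WT tumours and the other KO tumours below them. Log2 fold changes of the remaining 5 genes in bulk were 0.69 ± 0.52 for Rptor, 0.64 ± 0.43 for Deptor, 0.59 ± 0.64 for Akt1s1, 0.06 ± 0.53 for Mapkap1 and -0.82 ± 0.93 for Mlst8, with adjusted p between 0.713 and 0.986. Of these, Rptor rested on KO 37, which had 74.4 CPM beside 38.3 and 21.5 CPM in the other KO tumours and 18.4, 30.04 and 33.9 CPM in WT tumours, and its log2 fold change was 0.10 without that library. Mlst8 had 3.68, 2.94 and 13.0 CPM in KO and 14.7, 6.63 and 12.9 CPM in WT, with KO 37 among the WT tumours. Akt1s1 had 17.9, 25.3 and 15.8 CPM in KO and 18.8, 6.97 and 12.9 CPM in WT, with WT 35 among the KO tumours. Deptor had 37.5, 43.7 and 54.5 CPM in KO and 25.9, 20.0 and 40.3 CPM in WT, so that WT 110 lay among the KO tumours. Mapkap1 had 58.0, 25.05 and 17.5 CPM in KO and 22.4, 32.2 and 40.6 CPM in WT, and its log2 fold change turned to -0.59 without KO 26.

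**Figure D2:**
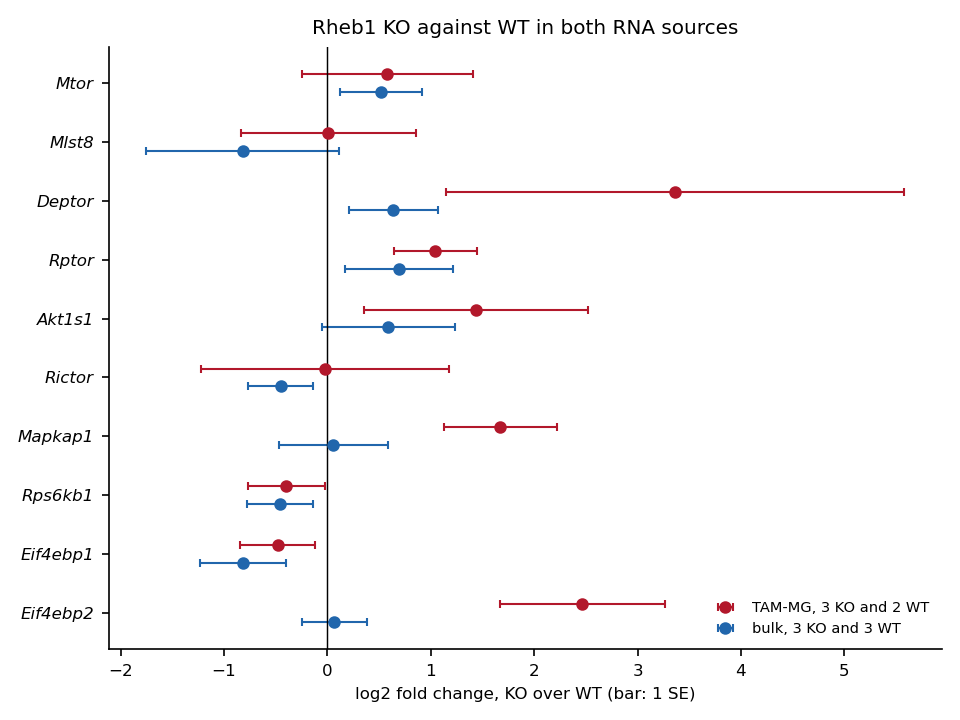
Log2 fold change of KO over WT on the x axis for each of the 10 genes on the y axis, in TAM-MG (3 KO and 2 WT, red) and bulk tumours (3 KO and 3 WT, blue), with bars of 1 SE. Eif4ebp2 was at 2.46 in TAM-MG and 0.07 in bulk, and Deptor, at 3.36 in TAM-MG, had the widest error; with an equal mean log CPM the value of Mlst8 in TAM-MG, and with library size alone those of Mapkap1 and Eif4ebp2 in bulk, changed sign.

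The difference between the genotype effects in TAM-MG and in bulk was fitted as an interaction with all 11 libraries, and uses the same libraries as both comparisons. It called 48 of 21342 genes, 0.225%, and 0 of the 10. Of all genes 42 (0.197%) were called with the larger KO-over-WT value in TAM-MG and 6 (0.0281%) with the smaller, and with an equal mean log CPM 7 and 3. Of the 10 genes 1 had an unadjusted p under 0.05, with a positive difference, beside 9.3% of all genes. All 10 differences were positive with TMM and 0 negative, beside 57.3% and 42.7% of all genes. Their median was 0.68 and that of all genes 0.30, and with an equal mean log CPM the medians were 0.10 and -0.13 and 5 of the values turned negative (Mtor, Rptor, Rictor, Rps6kb1 and Eif4ebp1). Eif4ebp2 had the largest departure for its error, 2.44 ± 0.62 (SE), with an adjusted p of 0.189. It was the only one of the 10 that the likelihood ratio test called, beside 3.91% of all genes, with an adjusted p of 0.0242, and DESeq2 gave 0.00157, and over 18 alternatives the adjusted p ran from 0.00157 to 0.352 and the difference from 1.97 to 2.86. Mapkap1 followed with 1.65 ± 0.85 (SE; adjusted p = 0.472). Microglia and macrophage markers, at lower levels in bulk KO than in bulk WT as given above, had positive differences too, in 10 of 10 genes, and their part in these values was not tested.

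The libraries of sorted microglia and of whole tumours were also compared with each other. In this comparison the cells, the way they were taken and the preservation of the RNA cannot be told apart, since all TAM-MG libraries came from sorted cells and all bulk libraries from fixed sections. TAM-MG differed from bulk at 11283 of 21342 genes tested, with 20.5% of all genes called higher and 32.4% called lower, and the median of all genes was -0.89 on the log2 scale. Of the 10 genes 4 were called, beside 52.9% of all genes: 1 was higher, Rptor, and 3 were lower, Eif4ebp2, Rictor and Deptor. In 0 of the 10 every TAM-MG library lay above every bulk library, beside 14.6% of all genes, and in 3 every one lay below, beside 20.2%. The count is no higher than the background, and each gene is given below beside its partner. The median of the 10 genes was -0.37, with 3 positive and 7 negative, beside 38.9% and 61.1% of all genes. With an equal mean log CPM the median of the 10 was 0.28 and that of all genes -0.23, with 5870 genes higher and 5341 lower, and with library size alone it was -1.45, with 3285 higher and 8562 lower, against 4370 higher and 6913 lower with TMM.

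Eif4ebp2 had 3.33 to 32.0 CPM in the 5 TAM-MG libraries, with a median of 17.0, against 56.6 to 87.8 CPM in the 6 bulk libraries, with a median of 78.6. No TAM-MG library reached the lowest bulk library, and the log2 difference was -2.89 ± 0.34 (SE; adjusted p = 5.70e-05), or -2.00 relative to the median of all genes. It was called in each of 20 alternatives, with adjusted p up to 0.0102. In alternatives chosen after seeing the data, the KO groups alone gave -1.68 and the WT groups alone -4.11.

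Eif4ebp1, the paralogue, was not lower in TAM-MG. It had 66.0 to 138 CPM in TAM-MG, with a median of 108, against 31.7 to 103 CPM in bulk, with a median of 66.3. The groups overlapped, and the log2 difference was 0.75 ± 0.31 (SE; adjusted p = 0.0601), which passed with an equal mean log CPM (1.44, adjusted p = 0.00280) and without bulk KO 37 (adjusted p = 0.0332), over a range of adjusted p from 0.00280 to 0.657 in all alternatives. Rps6kb1 had 48.3 to 79.3 CPM in TAM-MG and 51.5 to 101 CPM in bulk. Its log2 difference of -0.54 ± 0.26 (SE; adjusted p = 0.0923) turned to 0.15 with an equal mean log CPM, and passed with DESeq2 (-0.70, adjusted p = 0.00643), RLE scaling, library size alone (-1.09), at least 10 counts throughout, and without WT 74, over a range of adjusted p from 0.00643 to 0.676. Its median TPM was 19.3 in TAM-MG and 12.9 in bulk, the opposite order.

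Rictor had 18.2, 26.8 and 33.6 CPM in TAM-MG KO and 48.2 and 1.86 CPM in TAM-MG WT, against 73.2 to 150 CPM in bulk. All TAM-MG libraries lay below all bulk libraries, with a log2 difference of -2.24 ± 0.62 (SE; adjusted p = 0.0118). The call was lost with an equal mean log CPM (-1.51, adjusted p = 0.0629) and in either genotype alone (-1.99 in KO and -2.49 in WT, adjusted p = 0.0717 and 0.0700), and the difference was -4.26 without WT 74 and -1.92 without WT 78. Over 20 alternatives its adjusted p ran from 6.95e-05 to 0.0717. Mapkap1, the other mTORC2 subunit, had 13.0 to 66.7 CPM in TAM-MG and 17.5 to 58.0 CPM in bulk, a log2 difference of -0.33 ± 0.42 (SE; adjusted p = 0.528) that turned to 0.32 with an equal mean log CPM.

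Rptor went the other way. It had 55.4 to 149 CPM in TAM-MG, with a median of 74.3, against 18.4 to 74.4 CPM in bulk, with a median of 32.0. Bulk KO 37 reached into the TAM-MG range, and the log2 difference was 1.26 ± 0.37 (SE; adjusted p = 0.0147), or 2.16 relative to the median of all genes. The adjusted p rose to 0.0522, 0.0543 and 0.0632 without TAM-MG KO 63, WT 74 and WT 78, to 0.148 in the WT groups alone and to 0.126 with library size alone, where the difference was 0.70, over a range from 0.00153 to 0.148 in 20 alternatives. Akt1s1, the other mTORC1 subunit, had 5.17 to 54.4 CPM in TAM-MG and 6.97 to 25.3 CPM in bulk, a log2 difference of -0.07 ± 0.61 (SE; adjusted p = 0.959), or 0.59 with an equal mean log CPM.

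Deptor had 0 to 16.7 CPM in TAM-MG, against 20.0 to 54.5 CPM in bulk. All TAM-MG libraries lay below all bulk libraries, with a log2 difference of -3.47 ± 0.91 (SE; adjusted p = 0.00885). It was -2.08 in the KO groups alone (adjusted p = 0.147) and -4.86 in the WT groups alone (adjusted p = 0.0309). Mtor had 5.84 to 39.3 CPM in TAM-MG and 28.3 to 57.3 CPM in bulk, a log2 difference of -0.41 ± 0.46 (SE; adjusted p = 0.479), which turned to 0.24 with an equal mean log CPM and was -1.53 without WT 78 (adjusted p = 0.0138, in a range from 0.0138 to 0.834). Mlst8 had 9.35 to 31.7 CPM in TAM-MG and 2.94 to 14.7 CPM in bulk, a log2 difference of 1.07 ± 0.64 (SE; adjusted p = 0.172), which passed with an equal mean log CPM (1.77, adjusted p = 0.0371, in a range from 0.0371 to 0.621).

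**Figure D3:**
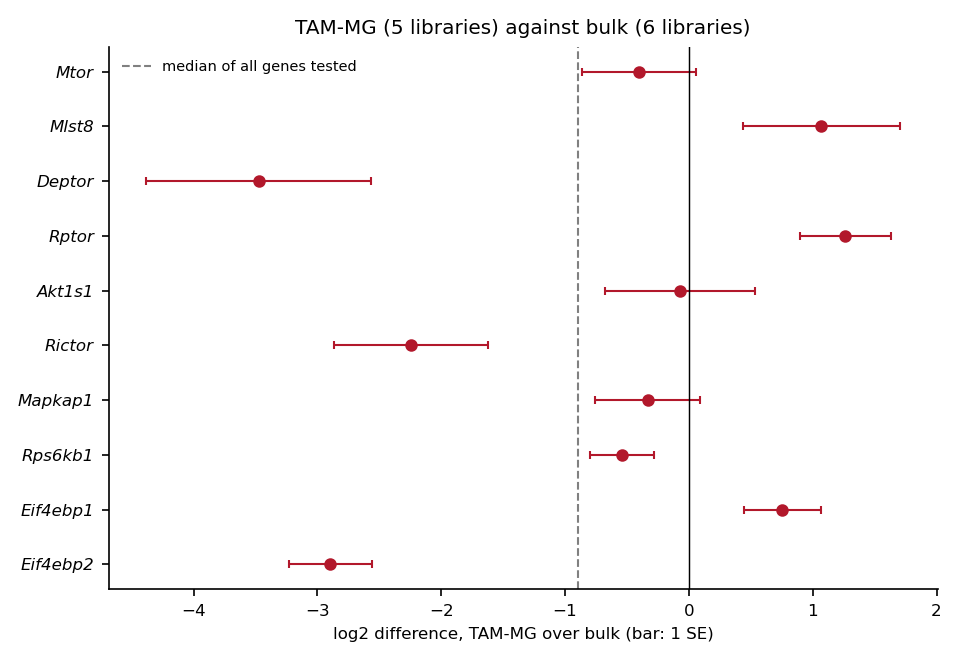
Log2 difference of TAM-MG (5 libraries) over bulk (6 libraries) on the x axis for each of the 10 genes on the y axis, with bars of 1 SE and a dashed line at the median of all genes tested (-0.89). Rptor lay at 1.26 and Rictor at -2.24, Eif4ebp1 at 0.75 and Eif4ebp2 at -2.89; with an equal mean log CPM the values of Mtor, Akt1s1, Mapkap1 and Rps6kb1 changed sign.

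Ratios of a pair of genes within a library do not depend on how libraries are scaled. The cells, the way they were taken and the preservation of the RNA still differed between TAM-MG and bulk. The ratios reuse the libraries and genes compared above, so they are no separate support. The share of other gene pairs that separate as fully was not computed. The log2 ratio of Rictor to Rptor counts, the scaffolds of mTORC2 and mTORC1, was -3.03, -2.45 and -1.14 in TAM-MG KO, -0.20 and -4.98 in TAM-MG WT, 1.87, 1.76 and 0.43 in bulk KO and 3.03, 2.16 and 2.03 in bulk WT. It averaged -2.36 ± 1.84 (SD, n = 5) in TAM-MG and 1.88 ± 0.84 (SD, n = 6) in bulk, below 0 in every TAM-MG library and above 0 in every bulk library. The difference of -4.24 had p = 0.00216 in a two-sided exact permutation test, the smallest that these libraries allow, and p = 0.00649 adjusted over the 6 ratio comparisons made. Of single genes, 14.6% lay above bulk in every TAM-MG library and 20.2% below.

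The log2 ratio of Eif4ebp1 to Eif4ebp2 counts was 2.88, 1.04 and 1.75 in TAM-MG KO, 5.02 and 4.70 in TAM-MG WT, -1.16, -1.05 and -0.25 in bulk KO and 0.86, 0.11 and -0.54 in bulk WT. It averaged 3.08 ± 1.76 (SD, n = 5) in TAM-MG and -0.34 ± 0.76 (SD, n = 6) in bulk, with no overlap. The difference of 3.41 had p = 0.00216 in the exact permutation test, again the smallest possible, and p = 0.00649 adjusted over 6. In TAM-MG the ratio averaged 1.89 ± 0.92 (SD, n = 3) in KO and 4.86 ± 0.22 (SD, n = 2) in WT, a difference of -2.97 with exact p = 0.1, the smallest that 3 against 2 libraries allow, and 0.150 adjusted over 6. In bulk the difference between KO and WT was -0.97 with exact p = 0.200, where 3 against 3 libraries allow no less than 0.1.

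The ratio of Rictor to Rptor differed between genotypes by -1.05 in bulk (1.35 ± 0.80 in KO and 2.41 ± 0.54 in WT, SD, n = 3 each), without overlap, with exact p = 0.1 and 0.150 adjusted over 6. In TAM-MG it differed by 0.38 with exact p = 1. With TPM in place of counts that last difference became -0.27. The differences between TAM-MG and bulk became -5.20 for Rictor to Rptor and 2.99 for Eif4ebp1 to Eif4ebp2, with adjusted exact permutation p of 0.0130 and 0.0195. Bulk Rptor was at 0 TPM in KO 26, 0.122 TPM in WT 35 and 0.155 TPM in WT 38. These values are below the 0.5 added, so the size of the -5.20 depends on that setting.

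**Figure D4:**
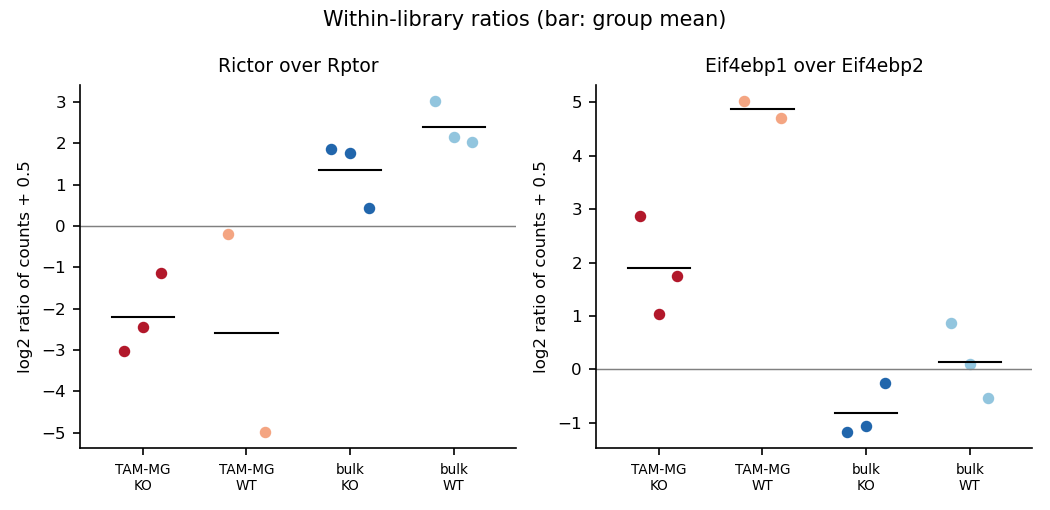
Log2 ratio of counts (each with 0.5 added) within each library on the y axis, by group on the x axis, for Rictor over Rptor (left) and Eif4ebp1 over Eif4ebp2 (right), with 1 point per library and a bar at the group mean. TAM-MG averaged -2.36 and bulk 1.88 for Rictor over Rptor, and TAM-MG averaged 3.08 and bulk -0.34 for Eif4ebp1 over Eif4ebp2.

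A list of 31 other genes of the pathway shows how the 10 compare with their partners. In TAM-MG 28 of them were tested for KO against WT and 0 were called. At an unadjusted p under 0.05, 2 were higher and 1 lower, near the 5.47% and 2.3% of all genes, and the median log2 fold change was 0.35. Among the higher genes the smallest p belonged to Eef2k, the kinase that S6 kinase restrains, with 46.3, 40.6 and 47.8 CPM in TAM-MG KO and 13.3 and 17.2 CPM in TAM-MG WT (log2 fold change 1.51 ± 0.47, SE; adjusted p = 0.507). Lpin1, a phosphatidate phosphatase that mTORC1 keeps out of the nucleus, followed at 2.02 ± 0.76 (SE; adjusted p = 0.552). On the lower side were Rheb, given above, and Tbc1d7, a subunit of the TSC complex that inactivates Rheb, at -0.87 ± 0.66 (SE; adjusted p = 0.818), and Tti1, which helps to assemble mTOR-family kinases, at -0.56 ± 0.72 (SE; adjusted p = 0.939).

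In bulk tumours 30 of the 31 were tested, 0 were called, 4 with an unadjusted p under 0.05 were higher and 2 lower, beside 3.82% and 5.19% of all genes, and the median log2 fold change was 0.20. Prr5l, an optional subunit of mTORC2, had 2.91, 5.67 and 4.005 CPM in bulk KO tumours and 25.7, 24.8 and 23.1 CPM in bulk WT tumours. All KO tumours lay far below all WT tumours, with a log2 fold change of -2.56 ± 0.68 (SE), an adjusted p of 0.208, and the likelihood ratio test called it with an adjusted p of 0.0237. In TAM-MG, Prr5l had 37.9, 9.15 and 4.01 CPM in KO and 19.9 and 34.3 CPM in WT, a log2 fold change of -0.71 ± 1.04 (SE; adjusted p = 0.947). The microglia and macrophage markers named above were also lower in bulk KO, and their part in the Prr5l values was not tested. Atg13, part of the ULK1 complex that starts autophagy, had 39.2, 71.0 and 61.5 CPM in bulk KO and 10.4, 33.8 and 10.9 CPM in bulk WT, a log2 fold change of 1.63 ± 0.55 (SE; adjusted p = 0.363). Pdcd4, an inhibitor of eIF4A that S6 kinase marks for degradation, followed at 0.79 ± 0.29 (SE; adjusted p = 0.420). On the lower side the assembly factors Tti2 and Tti1 had log2 fold changes of -1.53 ± 1.21 and -0.64 ± 0.59 (SE; adjusted p = 0.763 and 0.806).

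No paralogue outside the 10 passed the test between genotypes. Rps6kb2, which encodes S6K2, had 30.8, 10.1 and 8.17 CPM in TAM-MG KO and 17.1 and 29.0 CPM in TAM-MG WT (log2 fold change -0.54 ± 0.84, SE; adjusted p = 0.955), and 32.9, 15.7 and 16.1 CPM in bulk KO and 12.6, 13.6 and 10.1 CPM in bulk WT (0.81 ± 0.61, SE; adjusted p = 0.745). Eif4ebp3, the third 4E-BP, had 1 count in 1 of 11 libraries and was not tested, although its deposited TPM was 26.5 to 86.4 in bulk and 0 to 4.16 in TAM-MG. Prr5, the paralogue of Prr5l, had 94 counts in TAM-MG KO 54 and 0 in the other 4 TAM-MG libraries, and was not tested there. In bulk it had 13, 101 and 21 counts in KO and 2, 7 and 1 in WT, a log2 fold change of 4.04 ± 1.58 (SE; adjusted p = 0.467). The deposited TPM of Prr5 overlapped between the genotypes, with 8.19, 5.09 and 2.10 TPM in bulk KO and 2.74, 0.921 and 6.54 TPM in bulk WT.

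Between TAM-MG and bulk, 6 of the 30 pathway genes tested were higher and 6 lower, beside 20.5% and 32.4% of all genes. The higher ones were Rps6, the ribosomal protein that S6 kinase is named for, at a log2 difference of 3.09, the assembly factor Tti2 at 2.67, Sgk1, a kinase activated through mTORC2, at 2.34, the RNA helicase Eif4a1 at 1.90, and the cap-binding protein Eif4e and the RNA polymerase III repressor Maf1, both at 0.74 with adjusted p of 0.0499 and 0.0494. Among the lower ones were Rhebl1, a relative of Rheb, at -2.82, the autophagy kinase Ulk1 at -1.55, the RNA-binding substrate Larp1 at -1.06, Rheb at -0.69 and the adaptor Grb10, which was listed at 0 in 4 of 5 TAM-MG libraries and had 7.94 to 41.9 CPM in bulk. The deposited TPM did not show the differences of Rps6, with 1200 to 1452 TPM in TAM-MG and 734 to 1228 TPM in bulk, or of Tti2, with 0.0548 to 8.91 TPM in TAM-MG and 0.0702 to 13.9 TPM in bulk. Rheb lay above the median of all genes, which was -0.89. Differences of the genes named in every comparison that did not pass were 1.08 for Prr5l, 0.26 for Rps6kb2 and -2.49 for Prr5, with adjusted p of 0.147, 0.706 and 0.244.

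In the interaction, 0 of the 30 were called. Grb10 had the smallest p with a positive difference (adjusted p = 0.420), followed by Eef2k at 1.94 ± 0.95 (SE; adjusted p = 0.441), and Rps6kb2 the smallest with a negative one, -1.33 ± 1.04 (SE; adjusted p = 0.721), followed by Maf1 at -0.63 ± 0.58 (SE; adjusted p = 0.814) and Tbc1d7 at -0.89 ± 0.87 (SE; adjusted p = 0.837). Prr5l differed by 1.88 ± 1.23 (SE; adjusted p = 0.618) and Prr5 by 4.12 ± 3.25 (SE; adjusted p = 0.726). Rheb differed by 0.05 ± 0.52 (SE; adjusted p = 0.99996), beside its log2 fold changes of -0.85 in TAM-MG and -0.88 in bulk.

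On GRCm38, Rptor lies at chr11:119602905-119899576 and Rictor at chr15:6708379-6800401, Eif4ebp1 at chr8:27260329-27276674 and Eif4ebp2 at chr10:61428491-61452661, in the GENCODE M21 annotation. Some counts cannot be given to 1 gene alone, since the sources used here state no strand for the counting. Mlst8 shares 997 exon bases with Bricd5 on the other strand, Deptor 303 with Gm9920, Rps6kb1 155 with Rnft1 and Rptor 84 with Rptoros, and Akt1s1 shares 89 with Tbc1d17. Eif4ebp1 has an annotated near copy, Gm14143, with 93.3% identity over 357 aligned bases. Mtor, Rictor, Mapkap1 and Eif4ebp2 share no exon bases with another gene.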

How the data were processed

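The authors deposited gene counts made with STAR and TPM values made with Salmon, on the Ensembl release 90 annotation of GRCm38 per the labels and the study's methods. The versions of both tools are not given in the sources used here. An unnamed total row in the deposited TAM-MG count and TPM tables was left out of every step. The deposited bulk TPM table holds 12719 genes, all 10 members among them. Of 50686 gene IDs, 50376 (99.4%) matched a symbol in GENCODE M21. Libraries came from different mice, and p-values measure the spread between these mice.

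Counts were tested as deposited with edgeR 4.0.16 in R 4.3.3: filterByExpr (minimum count 10, minimum total 15), TMM scaling and the quasi-likelihood test, over the 6 bulk libraries, the 5 TAM-MG libraries or all 11. P-values were adjusted over all genes tested by Benjamini-Hochberg. Calls needed an adjusted p below 0.05 with at least a 1.5-fold difference. Standard errors were derived from the F statistic. Ratios used counts with 0.5 added and two-sided exact permutation tests over libraries. Alternatives were the likelihood ratio test, DESeq2 1.42.0, limma 3.58.1 on log2(TPM + 1) and log2(TPM + 0.1), other scalings, other filters, 1 fit over all 11 libraries, leaving out each library, and each genotype alone.

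The members and lists were chosen with earlier results of these data known. All 10 members are named in every comparison, with Rheb, Rps6kb2, Eif4ebp3, Prr5 and Prr5l, and of the other pathway genes those called or, where none was, in each direction the 2 of smallest p. The values of 1 pathway gene are not reported here. Marker lists covered microglia and macrophages, neurons, astrocytes, oligodendrocytes, endothelial cells, T cells, granulocytes and monocyte-derived macrophages. The tests were checked on simulated counts. Intervals and floors cover counting error only, since reads carry no molecular identifiers.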

Additional observations from a re-analysis of the deposited data

How the results depend on the processing

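With 2 or 3 libraries a group, single libraries carried much of the spread, and the lowest counts were those of Deptor, Rictor and Eif4ebp2 in TAM-MG WT. No paired analysis was possible because no replicate number occurs in more than 1 group. Where a value changed, the cause was not tested. In bulk KO against WT, 383 genes were called by the likelihood ratio test, 474 by DESeq2, 102 with no filter on low counts, 62 where every library had at least 10 counts, 18 in the fit over all 11 libraries and 1 by limma under each TPM setting, and 0 to 8 with 1 library left out. In TAM-MG KO against WT, 245 were called by the likelihood ratio test, 477 by DESeq2, with 1 of the 10 genes (Eif4ebp2), and 65 in the fit over all 11. TAM-MG against bulk gave 4571 calls among genes with at least 10 counts throughout, where Deptor was not tested, and, in contrasts chosen after seeing the data, 7066 in the KO groups alone and 5828 in the WT groups alone, each with 2 of the 10 genes. The interaction gave 835 calls by the likelihood ratio test and 1206 by DESeq2, each with 1 of the 10 (Eif4ebp2), 8 with RLE scaling, 10 with an equal mean log CPM, 76 with no filter, 3 where every library had at least 10 counts, and 1 to 361 with 1 library left out.

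Signs turned as follows. In bulk KO against WT, limma on log2(TPM + 1), with or without its filter, gave -0.20 for Mtor, 0.80 for Rps6kb1 and -0.041 for Eif4ebp2, and on log2(TPM + 0.1) -0.25, 0.93 and -0.043. Library size alone gave -0.037 for Mapkap1 and -0.020 for Eif4ebp2. Leaving out 1 library gave -0.59 to 0.36 for Mapkap1 and -0.12 to 0.16 for Eif4ebp2. In TAM-MG KO against WT, Mlst8 was -0.030 with library size alone and -0.47 with an equal mean log CPM, and Rictor 0.30 and 1.01 by limma with 1 and 0.1 added to TPM and 0.064 in the fit over all 11. Leaving out 1 library gave -0.20 to 2.48 for Mtor, -0.62 to 0.76 for Mlst8, -0.96 to 3.80 for Rictor and -0.72 to 0.060 for Rps6kb1. In TAM-MG against bulk, an equal mean log CPM gave 0.24 for Mtor, 0.59 for Akt1s1, 0.32 for Mapkap1 and 0.15 for Rps6kb1, the KO groups alone 0.36 for Akt1s1 and 0.49 for Mapkap1, and leaving out 1 library -0.84 to 0.042 for Akt1s1. In the interaction, an equal mean log CPM gave -0.29 for Mtor, -0.12 for Rptor, -0.13 for Rictor, -0.44 for Rps6kb1 and -0.12 for Eif4ebp1, DESeq2 -0.040 for Mtor and -0.0008 for Rps6kb1, and RLE scaling -0.040 for Mtor. Leaving out 1 library gave -0.69 to 2.08 for Mtor, -0.34 to 1.72 for Akt1s1, -0.40 to 4.28 for Rictor and -0.15 to 0.54 for Rps6kb1. The ratio of Rictor to Rptor in TAM-MG KO against WT was -0.27 from TPM and -2.01 to 2.77 with 1 library left out.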
